A study of Mus musculus with 2 samples.

Results

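The genes described here encode the proteins of the cytosolic ribosome. They were taken as all rows whose symbol begins with Rpl or Rps followed by a digit, plus Rplp0, Rplp1, Rplp2 and Rpsa. Symbols containing -ps (16 rows) and the Rps6k kinases (10 rows) were left out. Of 87 matching rows, 84 had at least 100 unique molecular identifiers (UMIs, each standing for 1 captured transcript) over both libraries and were kept, out of 27998 genes in all. The 3 rows just outside were Rpl10l with 0 UMIs, Rpl3l with 2 and Rpl39l with 20, and the lowest members were Rpl6l with 3674 and Rpl7l1 with 5284. There were 50 members of the large subunit and 33 of the small subunit by symbol. Rps19bp1 also met the symbol rule, although it encodes a nucleolar protein that binds a small-subunit protein and is not part of the ribosome.

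Islets of C57BL/6 mice were profiled as single cells at postnatal day 70 (10 weeks) with droplet capture of transcript 3' ends. There was 1 wild type library (WT) and 1 library from mice carrying a miR-503 transgene specific to beta cells (βTG, written bTG in the plots). The sources used here give neither the promoter of the transgene nor how many mice went into a library. With 1 library per genotype no test was possible, and no difference between genotypes has a replicate check. All 95% intervals are exact and cover counting error only.

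A ribosome is built from ribosomal RNA and roughly equal numbers of each protein, so cells make the mRNAs of these proteins at high and coordinated levels. Their translation is controlled together through a tract of pyrimidines (C and T) at the very 5' end of the mRNA, known as the TOP motif, which responds to growth signals through mTOR and the RNA-binding protein Larp1. In a beta cell, where a large part of the mRNA encodes insulin, these genes form the next large block of transcripts.

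The WT matrix held 104677537 UMIs over 4540 barcodes and the βTG matrix 109243270 UMIs over 4158 barcodes, and 20 and 15 barcodes failed the filters on genes, UMIs and mitochondrial share. The libraries shared 25 barcodes. Xist, which female cells use for X inactivation, had 14 UMIs in WT and 6890 in βTG, so the sex makeup differed. Cells were classed by hormone as a share of all UMIs: beta cells had at least 25% Ins1 plus Ins2 (3311 WT and 2719 βTG cells), alpha cells at least 3% Gcg (384 and 555), delta cells at least 2% Sst (63 and 72) and gamma cells at least 2% Ppy (132 and 114). Cells meeting more than 1 of these limits, 6.84% of WT and 11.3% of βTG cells, were left out. Immune cells met none of the limits and had at least 6 of 15 leukocyte genes (96 and 149). The alpha cell factor Irx2 stood at 55.5 and 73.4 counts per 1000000 UMIs (CPM) in alpha cells of WT and βTG and at 1.02 and 1.52 in beta cells, and the delta cell factor Hhex at 134.0 and 137.1 in delta cells. Not every listed marker marked its class. Lepr, listed as a delta marker, had 0 UMIs in delta cells, and Aqp3, listed as a gamma marker, had 0 in gamma cells. Of the other gamma markers, Sgce was lower in gamma cells (14.8 and 23.2) than in alpha cells (36.4 and 38.4). Tspan7 was near its alpha cell level (154.4 and 132.5 against 151.1 and 171.8). Pyy was higher in gamma cells (53586 and 55089 against 16812 and 13799). Insulin made up 50.8% of all beta cell UMIs in WT and 60.1% in βTG, so shares and CPM of members are given below out of the UMIs outside Ins1 and Ins2 unless another base is named, while marker CPM are out of all UMIs. Pairs of values are in the order WT, βTG. Immune cells also held insulin UMIs (3.92% and 2.83%), and the part of such RNA in the class levels was not tested.

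The sequence of the overexpressed microRNA and the 5' ends of members at both ends of the beta cell comparison are shown first, since the comparison turns on the former and the TOP class is defined by the latter. The mature miR-503-5p, encoded on the minus strand at chrX:53054027-53054049 (RefSeq, GRCm38.p6, the build of the mm10 files), is printed with its seed, bases 2 to 8, in capitals.
miR-503-5p: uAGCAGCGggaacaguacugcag
In the 3' UTRs annotated by GENCODE, a match to this seed (CGCTGCT, or GCTGCTA, sense strand; both contain GCTGCT) was present in 1 of 83 members with a 3' UTR, 1.2%, against 14.2% of 12390 genes with at least 100 UMIs. The members' 3' UTRs are short, with a median of 160 bases against 1197. Per 10000 bases of 3' UTR there were 0.291 matches in members and 1.02 over all genes. The single match lies 139 bases into the 369 base 3' UTR of Rps19bp1, which is no ribosomal protein, with the match in capitals.
Rps19bp1: agccatatGCTGCTAtcccaggg

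RefSeq promoter sequences were found for 63 of the 84 members. The 30 bases from 10 before to 20 after the annotated start were read for runs of C and T, which a TOP mRNA carries at its cap. A run of 8 or more was found at any annotated start of 24 members, 38.1%, against 14.1% of 9884 genes with at least 100 UMIs. The letters CTTTCC occurred on the sense strand in 15.9% of members against 1.57% of those genes, and on the antisense strand in 0 members against 1.46%. In the full 300 bases, CCGGAAG, a core bound by ETS family factors, was found on either strand in 39.7% of members against 19.5%. The windows of the members at the upper and lower ends of the beta cell comparison are printed with the longest pyrimidine run in capitals (Rpl7a, chr2:26910797-26910826, plus strand; Rps27l, chr9:66946076-66946105, plus; Rpl15, chr14:18270967-18270996, minus; Rpl14, chr9:120571507-120571536, plus; Rpl41, chr10:128549149-128549178, minus; Rps27, chr3:90213629-90213658, minus; all GRCm38.p6).
Rpl7a: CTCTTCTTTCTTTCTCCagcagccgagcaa
Rps27l: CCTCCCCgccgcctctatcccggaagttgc
Rpl15: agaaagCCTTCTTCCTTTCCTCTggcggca
Rpl14: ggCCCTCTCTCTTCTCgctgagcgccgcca
Rpl41: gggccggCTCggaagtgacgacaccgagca
Rps27: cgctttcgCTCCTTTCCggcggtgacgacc
Long runs stood at both ends of the comparison, 17 bases in Rpl7a and Rpl15 and 14 in Rpl14. With 1 window per gene, the first listed, 21 members had a run of at least 8 and 42 a shorter one, and their median βTG over WT log2 ratios in beta cells were 0.09 and 0.08.

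The share of RNA that was ribosomal protein mRNA differed between cell classes, most for B cells. In WT cells the summed share was highest in B cells at 38.7% (38.5 to 38.9), followed by alpha cells at 21.7% (21.6 to 21.7), macrophages at 18.05% (17.96 to 18.13), delta cells at 16.05% (15.96 to 16.13), beta cells at 14.3% and gamma cells at 13.4% (13.4 to 13.5). In βTG cells B cells again stood highest at 39.95% and gamma cells lowest at 11.05%, with macrophages at 20.2%, alpha cells at 19.5% and delta and beta cells both at 14.9%. In summed shares the place of βTG macrophages above alpha cells rested on 1 barcode described below. Without it their share was 18.8%, below alpha cells as in WT. Medians over cells, with that barcode included, were 19.2% in βTG macrophages and 18.9% in βTG alpha cells. Delta and beta cells did not separate in βTG on the base outside insulin. The place of gamma cells depended on the base, since Ppy took 23.8% of their UMIs in WT and 35.7% in βTG. Outside 7 hormone genes (Ins1, Ins2, Gcg, Sst, Ppy, Pyy and Iapp) and mitochondrial genes, gamma cells held 22.0% and 21.3%, above beta cells at 17.4% and 18.02%, and alpha cells held 29.7% and 27.3%. The places of delta cells and macrophages changed too. Delta cells held 19.7% and 19.3% there, above beta cells in βTG as well (log2 0.10, 0.09 to 0.11). Macrophages held 18.8% and 20.9%, in WT below delta and gamma cells.

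**Figure D1:**
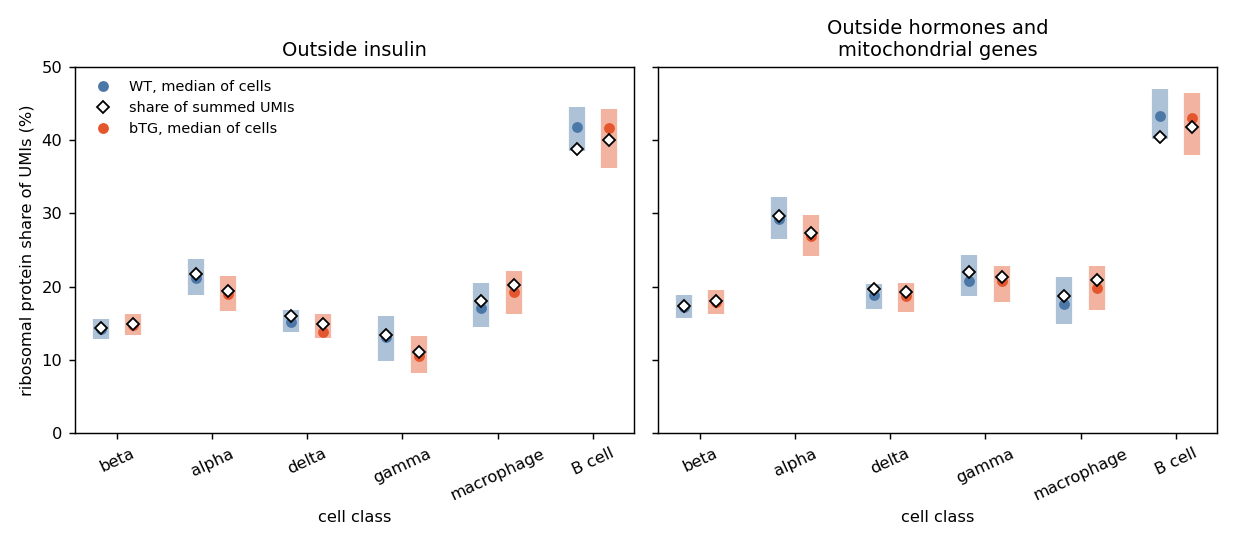
Share of UMIs from the 84 genes by cell class (x axis) in percent (y axis), outside insulin on the left and outside hormones and mitochondrial genes on the right. Points are medians over cells, bars the quartiles over cells and diamonds the share of summed UMIs; B cells stand near 40% on both bases, and gamma cells lie below beta cells on the left and above them on the right.

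Single cells of a class varied well beyond counting. The SD of the share over beta cells was 2.16 percentage points in WT and 2.45 in βTG, against 0.33 expected from counting in each. The quartiles were 12.8 and 15.6% in WT and 13.3 and 16.3% in βTG. Large- and small-subunit shares went together over cells, with Pearson's r of 0.93 over the 3311 WT and 0.94 over the 2719 βTG beta cells. Both shares come from the same cell and have the same denominator. A median of 82 of the 84 members was detected per beta cell in each library, with a median of 1679 and 1731 member UMIs. In gamma cells the share went with the mitochondrial share (Spearman's rho 0.70 over 132 WT and 0.79 over 114 βTG cells). Both denominators include Ppy there, and its part in this relation was not tested. The rho was also above 0 in alpha cells (0.41 and 0.34), delta cells (0.45 and 0.24) and beta cells (0.09 and 0.31).

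The study's comparison asks what the miR-503 transgene does to islet cells, so the family was compared between genotypes within each class. In beta cells, where the label places the transgene, the summed share was 14.3% in WT and 14.9% in βTG, 1.04-fold higher, a log2 ratio of 0.059 (0.058 to 0.061). A gene is called higher here where its log2 ratio reached 0.32 (25% higher) and lower where it reached −0.32 (20% lower), which is a size and not a test. None of the 84 members was called in either direction, while of all 13021 genes 12.9% were called higher and 13.6% lower. The ratio was above 1 for 70 members and below 1 for 14, against 46.7% and 53.3% of all genes. The members' median log2 ratio was 0.08, with quartiles of 0.02 and 0.13, beside −0.02 for all genes. The 1368 genes with at least 100 CPM had a median of 0.01, and 6.21% of them were called higher and 5.77% lower.

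The sign of the beta cell difference depended on the base. Over all UMIs, insulin included, the share was 7.04% in WT and 5.96% in βTG, a log2 ratio of −0.24, with 1 member above 1 and 9 called lower, beside 14.1% and 49.7% of all genes. The median on that base was −0.22 for members and −0.32 for all genes. That shift goes with the larger insulin share of βTG beta cells. Outside hormones and mitochondrial genes the ratio was 0.052, with 67 members above 1 and 17 below, beside 45.5% and 54.5% of all genes. Both insulin share and mitochondrial share differed between libraries (median mitochondrial share 3.22% in WT and 2.03% in βTG), so beta cells were also compared in bins.

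Within each library the ribosomal share was lower in beta cells with more insulin. In WT it was 15.2% at 25 to 40% insulin, 14.5% at 40 to 50%, 14.0% at 50 to 60% and 13.5% at 60 to 70%. In βTG the same bins held 17.8%, 16.5%, 15.2% and 14.3%. The βTG over WT log2 ratio was therefore larger within bins than over all beta cells: 0.23 at 25 to 40% (541 WT and 65 βTG cells), 0.19, 0.11 and 0.08. Above 70% insulin it was 0.10, on only 18 WT cells against 136. In bins of mitochondrial share the ratio ran from 0.08 to 0.12, and in bins of UMIs outside insulin from 0.04 to 0.12. Spearman's rho of the ribosomal share with the insulin share was −0.20 in WT and −0.32 in βTG beta cells.

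**Figure D2:**
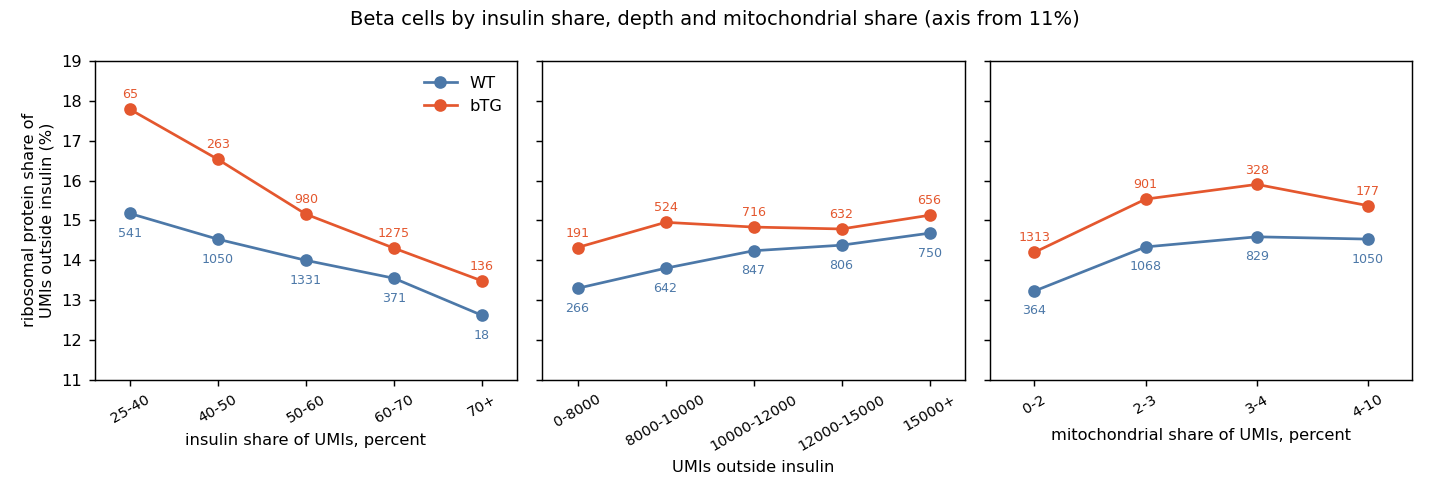
Ribosomal protein share of UMIs outside insulin (y axis, percent, from 11%) in WT and βTG beta cells by bins of insulin share, UMIs outside insulin and mitochondrial share (x axes). Numbers are cells per bin; the βTG line lies above the WT line in every bin shown, with the widest gap at 25 to 40% insulin.

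Among large-subunit proteins, Rpl7a had the highest ratio in beta cells. It stood at 664.8 CPM outside insulin in WT and 816.6 in βTG, a log2 ratio of 0.30 (0.27 to 0.32). Its gene lies at chr2:26910764-26913318 on the plus strand of GRCm38, and the left-out row Rpl7a-ps5, with 2157 UMIs, may share its reads. Rpl15 was at 814.3 and 938.1 CPM (0.20), Rpl27 at 867.5 and 994.0 (0.20) and Rpl6 at 1369 and 1558 (0.19). Rpl5, which with 5S RNA can bind Mdm2 and so stabilise p53, was at 848.0 and 972.2 CPM (0.20, 0.18 to 0.22). Rpl11, its partner in that complex, was at 1830 and 1900 (0.05). Rpl6l, annotated by RefSeq as a pseudogene of Rpl6, rested on 1023 and 987 UMIs (0.21, 0.08 to 0.33), and reads of the parent gene could reach it.

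The small-subunit paralogue Rps27l, known as a p53 target, had the highest ratio of all members in beta cells. It stood at 384.3 CPM in WT and 478.1 in βTG (0.31, 0.28 to 0.35), just under the limit for a call. Rps27, from which it differs by a few residues, went the other way, at 3858 and 3617 CPM (−0.09, −0.10 to −0.08). Rps3, which sits at the mRNA entry channel, was at 1390 and 1598 (0.20), Rps9 at 1146 and 1318 (0.20) and Rps7 at 1289 and 1468 (0.19). In alpha cells Rps27l was at 386.2 and 375.3 CPM (−0.04, −0.12 to 0.04) and Rpl7a had a ratio of −0.12.

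At the low end in beta cells were Rpl14, at 1555 and 1415 CPM (−0.14, −0.15 to −0.12), and Rpl36, at 2394 and 2223 (−0.11). Rpl41, the shortest ribosomal protein and the most abundant member by UMIs, was at 9025 in WT and 8372 in βTG (−0.11, −0.12 to −0.10). Rps26 had a ratio of −0.08, Rps12 of −0.06, Rpl19 of −0.03 and Rps2 of −0.02. Rps27rt, a retrotransposed copy of Rps27 with which it could exchange reads, was at 447.0 and 436.5 (−0.03). Rps19bp1, the member with the miR-503-5p seed match printed above, was at 56.4 and 52.9 CPM in beta cells (−0.09, −0.18 to −0.0025) and at 37.4 and 46.7 in alpha cells (0.32, 0.08 to 0.56), just under the limit for a call.

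After Rpl41 the most abundant members in WT beta cells were Rpl37a, Rpl10, Rps27, Rps29, Rps14, Rpl13a and Rpl37. A 3' tag counts a transcript once whatever its length, so these levels were not divided by length. Rpl37a stood at 4060 and 4234 CPM, Rpl10 at 3941 and 4280, Rps29 at 3618 and 3784, Rps14 at 3236 and 3483, Rpl37 at 2576 and 2725 and Rpl13a at 2933 and 2920. Of these, only Rpl41, Rps27 and Rpl13a had a ratio below 1. Rpl10-ps3, a left-out row with 71860 UMIs, may take reads of Rpl10. The 4 X-linked members, Rpl10, Rpl39, Rpl36a and Rps4x, had ratios of 0.09 to 0.12, inside the range of the other members, although the libraries differed in Xist.

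**Figure D3:**
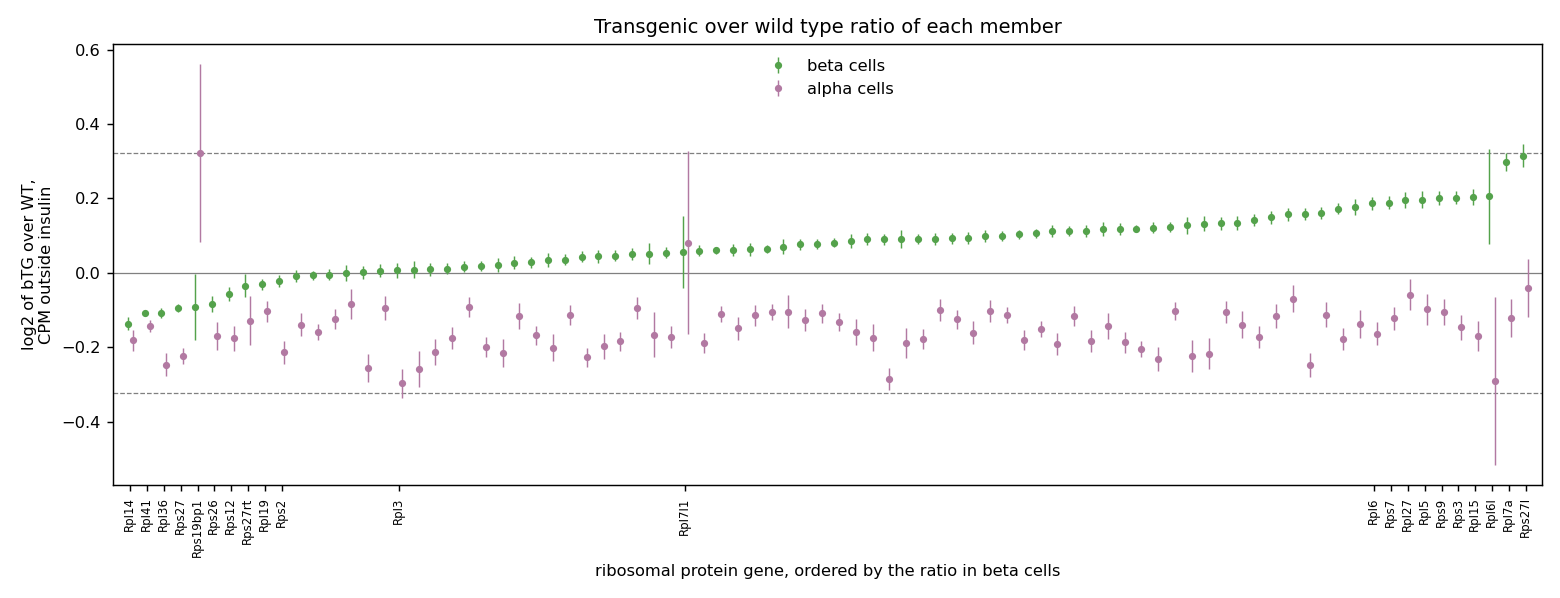
Log2 ratio of βTG over WT CPM outside insulin (y axis) for each of the 84 genes (x axis, ordered by beta cells) in beta and alpha cells; the 10 genes at either end, Rpl3 and Rpl7l1 are named. Bars are 95% counting intervals and dashed lines mark log2 0.32 and −0.32; beta cell values run from −0.14 (Rpl14) to 0.31 (Rps27l), and alpha cell values lie below 0 except for Rps19bp1 and Rpl7l1.

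In alpha cells, where the label does not place the transgene, the family stood lower in βTG. The summed share was 21.7% in WT and 19.5% in βTG, 1.11-fold lower (log2 −0.15, −0.16 to −0.15), and −0.12 outside hormones and mitochondrial genes. The ratio was below 1 for 82 members and above 1 for 2, beside 55.2% and 44.8% of all 11486 genes tested. No member was called, where 13.3% of all genes were called higher and 18.1% lower. Among the 904 genes with at least 100 CPM the shares were 7.3% and 5.53%. The members' median was −0.15 beside −0.04 for all genes, and Gcg took 20.03% of alpha cell UMIs in WT and 22.9% in βTG. Rpl3, the protein nearest the peptidyl transferase centre, was at 1643 and 1337 CPM (−0.30, −0.34 to −0.26), the lowest ratio. Rpl6l (−0.29) and Rpl12 (−0.26) were also low. Rps19bp1 and Rpl7l1 (0.08, −0.16 to 0.33) were the 2 members above 1. Rps27l (−0.04) and Rpl27 (−0.06) were next.

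Delta cells had too few UMIs for single members to be read closely. Their summed share was 16.05% in WT and 14.9% in βTG (−0.10, −0.12 to −0.09) outside insulin and 19.7% and 19.3% (−0.03) outside hormones and mitochondrial genes. Outside insulin 75 members were below 1 and 9 above, beside 57.5% and 42.5% of all genes. Rpl7l1 was called higher (27 and 46 UMIs, 0.70, −0.02 to 1.44), and Rps19bp1 (48 and 28 UMIs, −0.85) and Rpl6l (24 and 20 UMIs, −0.33) were called lower, where 16.5% of all genes were called higher and 27.5% lower. Rpl5 was at 906.1 and 738.3 CPM (−0.30, −0.46 to −0.13), Rps15a at 1865 and 1918 (0.04) and Rpl36a at 987.9 and 1014 (0.04).

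In gamma cells the whole family lay below 1 outside insulin and near 1 outside hormones. The share was 13.4% in WT and 11.05% in βTG (−0.28, −0.29 to −0.27), all 84 members were below 1, and 22 were called lower. Of all 9406 genes, 77.5% were below 1 and 22.5% above, 45% were called lower and 7.28% higher, and the median of all genes was −0.28 beside −0.27 for members. Outside hormones and mitochondrial genes the ratio was −0.050, with 23 members above 1 and 61 below, beside 44.6% and 55.4% of all genes. None was then called, where 16.2% of all genes were called higher and 24.5% lower. Rps12 was lowest, at 1210 and 845.6 CPM outside insulin (−0.52), with Rpl22 (−0.48) and Rpl12 (−0.45). The highest were Rps19bp1 (−0.0030), Rps27l (−0.03) and Rpl22l1 (−0.05), and their ratios were 0.23, 0.20 and 0.18 outside hormones and mitochondrial genes.

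Immune cells had a summed share of 23.5% in WT and 31.7% in βTG (0.43, 0.42 to 0.44). Of the members 73 were called higher and none lower, where 33.9% of all 7694 genes were called higher and 26% lower. The ratio was above 1 for 83 members and below 1 for 1, beside 55.5% and 44.5%. Rpl22 was at 942.8 and 1496 CPM (0.67), Rps27rt at 516.6 and 816.2 (0.66) and Rpl35 at 2919 and 4608 (0.66), while Rps29 was at 7369 and 8071 (0.13) and Rpl7l1 at 78.3 and 73.8 (−0.09). The makeup of the class differed between libraries: 68 macrophages and 22 B cells in WT, 46 macrophages and 58 B cells in βTG, and 6 and 45 immune cells in neither subset, which had shares of 30.9% and 30.7%. The subsets were called from at least 3 markers, such as C1qa (2774 and 2873 CPM in macrophages, 0 and 6.3 in B cells) and Cd79a (1273 and 1179 in B cells). Macrophage markers were not all as level between libraries as C1qa. In macrophages Lyz2 was at 2787 and 10307 CPM and Adgre1 at 128.6 and 90.2.

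Within the subsets the genotypes lay closer. B cells had 38.7% and 39.95% (0.045, 0.034 to 0.056), medians over cells of 41.7% and 41.6%, 57 members above 1 and 27 below, beside 47.9% and 52.1% of all genes. Rps27rt (0.40) and Rpl22 (0.39) were called higher and Rpl7l1 (32 and 64 UMIs, −0.70) lower, beside 25.1% and 28.4%. Macrophages had 18.05% and 20.2% (0.16, 0.15 to 0.17), with 79 members above 1 (53.7% of all genes) and 10 called higher (28.5% of all genes). The size of this summed ratio leaned on 1 cell. Medians over cells, with that cell included, were 17.04% and 19.2%. The deepest βTG macrophage barcode had 52702 UMIs, a ribosomal share of 32.9%, and 1572 of the 1642 UMIs of 7 acinar genes found in the class. Without it the ratio was 0.060, 60 members were above 1 and 24 below, 1 was called higher, and Rps27l went from 0.62 to 0.0021. Rpl22l1 went from 0.55 to 0.16.

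The family also differed in makeup between classes. Against beta cells, alpha cells had a log2 ratio of the summed share of 0.60 in WT and 0.38 in βTG, and 54 of 84 members reached the size of a higher call in both, where 8.44% of 12753 genes did. Outside hormones and mitochondrial genes 72 members did, beside 11.3%. Rpl23a had the highest mean over both libraries, at 2911 CPM in WT alpha and 1393 in WT beta cells (1.06, and 0.83 in βTG). Rpl14 followed (0.96 and 0.92, the highest in βTG), then Rpl35a (0.99 and 0.77), Rpl13 (0.98 and 0.77) and Rpl6l (1.03 and 0.54). Rpl41 was nearly level (0.05 and 0.01), and Rpl36al was at 0.20 and 0.03. Rps19bp1 (−0.59 and −0.18) and Rpl7l1 (−0.26 and −0.23) were lower in alpha cells, and Rps27l was at 0.01 and −0.35.

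B cells stood above beta cells by 1.44 in WT and 1.42 in βTG on the log2 scale, and 79 of 84 members reached the size of a higher call in both, beside 17.4% of all 12698 genes. The members did not shift evenly. Among the highest, Rps19 was 4.99-fold higher in WT and 4.81-fold in βTG, and Rplp0, the base of the ribosomal stalk, 5.02- and 4.39-fold. Rpl35 (log2 2.12 and 2.22) and Rpl10a (2.17 and 2.12) were also high. Rpl36al, the autosomal paralogue of Rpl36a, was at 1019 CPM in WT B cells and 1017 in WT beta cells (0.00, and 0.04 in βTG), whereas X-linked Rpl36a was at 2812 and 777.2. Rps27l (0.28 and 0.07), Rpl10 (0.41 and 0.27), Rps21 (0.24 and 0.44) and Rpl41 (0.30 and 0.64) were also at the low end of the members' ratios.

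Macrophages had a share 0.33 above beta cells in WT and 0.44 in βTG (0.33 without the deepest cell). The size depended on the base. Outside hormones and mitochondrial genes the log2 ratio was 0.11 in WT and 0.22 in βTG, the latter with the deepest cell included. The members' medians on that base were 0.16 and 0.21, beside −1.44 and −1.34 for all genes. Outside insulin 46 members were called higher and 3 lower in both libraries, where 14.2% and 62% of 12754 genes were. Without that cell there were 40 and 4. Rps9 (1.23 and 1.23), Rplp0 (1.07 and 1.03), Rps26 (0.88 and 1.13) and Rpl35 (0.87 and 1.14) were among the highest. Rpl36al had the lowest mean over both libraries, at 591.6 and 633.5 CPM against 1017 and 1068 in beta cells (−0.78 and −0.75). Rpl41 (−0.81 and −0.46), Rps21 (−0.46 and −0.36) and Rpl22l1 (−0.68 and −0.13) were lower too, Rpl41 more so than Rpl36al in WT, and Rpl22l1 in βTG was at −0.53 without the deepest cell. Rpl5 (−0.28 and −0.23) and Rpl38 (−0.30 and −0.16) completed the low end.

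**Figure D4:**
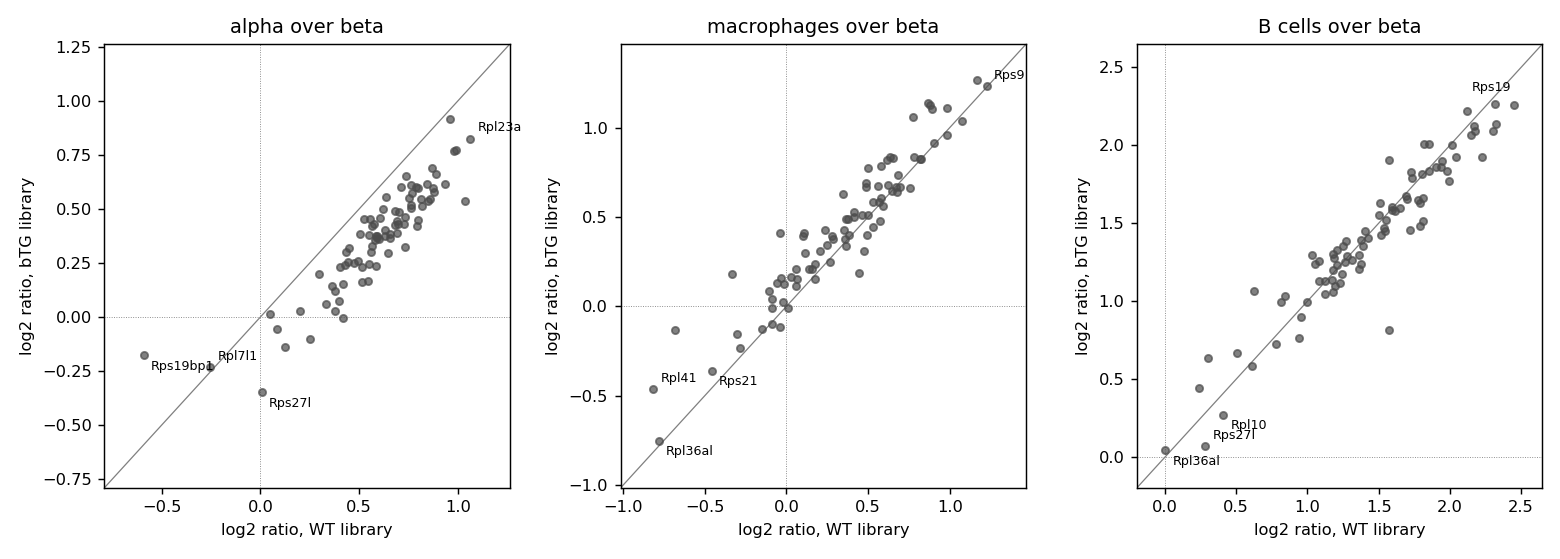
Log2 ratio of CPM outside insulin in alpha cells, macrophages and B cells over beta cells, in the WT library (x axes) and the βTG library (y axes). Each point is 1 of the 84 genes and the grey line is equality; macrophage and B cell points lie on both sides of the line, alpha cell points mostly below it (medians of 0.61 in WT and 0.39 in βTG), and B cell points run from Rpl36al at 0.00 and 0.04 to Rps19 at 2.32 and 2.27 in B cells.

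B cells exceeded macrophages by 1.10 in WT and 0.98 in βTG (1.09 without the deepest macrophage), with 82 of 84 members called higher in both, beside 32.8% of 4221 genes. Rps29 was at 0.19 and 0.18, and Rpsa, also known as the laminin receptor, was highest at 1.74 and 1.61. These 2 members, and those named next for delta cells, were picked after their values were seen. Delta cells differed from beta cells by 0.16 in WT and 0.00 in βTG, and by 0.18 and 0.10 outside hormones and mitochondrial genes. Rpl3 (0.70 and 0.64) and Rpl14 (0.58 and 0.62) were higher and Rplp1 (−0.59 and −0.72), Rpl28 (−0.46 and −0.61) and Rpsa (−0.42 and −0.54) lower. Large-subunit genes took 8.66% of WT and 8.95% of βTG beta cell UMIs and small-subunit genes 5.66% and 5.97%. The large over small ratio was 1.53 in WT beta cells, lower in βTG beta cells but still above the 1.45 to 1.47 of the other endocrine classes of both libraries, and 1.29 and 1.31 in macrophages and 1.30 and 1.34 in B cells.

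Paralogue pairs had separate class profiles. Rpl22, whose loss is known to impair T cell development, was at 512.2 and 531.0 CPM in beta cells and 1524 and 1993 in B cells. Its paralogue Rpl22l1 was at 908.6 and 908.3 in beta cells, 1412 and 1333 in alpha cells and 1625 and 1858 in B cells. Rpl22l1 thus exceeded Rpl22 in each endocrine class of both libraries. In macrophages Rpl22 was the higher in both (723.8 against 565.4 in WT, 907.2 against 828.8 in βTG with the deepest cell included), and in B cells only in βTG. Rpl7l1 was at 45.2 and 47.0 in beta cells beside 872.1 and 985.7 for Rpl7. Rpl39l, Rpl3l and Rpl10l, paralogues known from testis and muscle, had fewer than 100 UMIs over both libraries.

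Ribosomal proteins outside the symbol rule had ratios on either side of the family's median. Gnb2l1, the scaffold protein Rack1, was at 470.1 CPM in WT and 533.2 in βTG beta cells (0.18), and Fau, the source of a small-subunit protein, at 1924 and 1973 (0.04). Of 20 translation factors and other mRNAs of the TOP class, 1 was called higher and none lower in beta cells, 15 were above 1 and 5 below, and the median was 0.09, where of all genes 12.9% were called higher, 13.6% lower and 46.7% were above 1. Eif3m was at 199.7 and 272.3 CPM (0.45) and Eif3k at 214.6 and 254.3 (0.24), while the poly(A)-binding protein Pabpc1 was at 321.7 and 269.8 (−0.25) and Eif2s3x at 71.4 and 60.5 (−0.24). In alpha cells the list's median was −0.13, with 4 above 1 and 16 below, beside 44.8% and 55.2% of all genes.

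Ribosome biogenesis genes, whose products assemble the subunits in the nucleolus, were centred near a ratio of 1. Of 33 biogenesis genes none was called higher and 2 were called lower in beta cells, with a median of 0.02, beside 12.9% and 13.6% of all genes, and those shares, with 46.7% above 1, are also the background of the lists that follow. The 2 were Nop10, a pseudouridylation subunit, at 195.6 and 151.8 CPM (−0.37), and the helicase Ddx21 at 46.6 and 36.2 (−0.36). Rrp9 (0.32, just under a call) and Nob1 (0.24) were the highest. Of 77 mitochondrial ribosomal proteins, which serve the separate ribosome of that organelle, 6 were called higher and none lower, 65 were above 1, and the median was 0.14, so that the list held fewer calls than the background and more genes above 1. Mrpl47 (0.68) and Mrpl39 (0.48) were highest and Mrps25 (−0.28) and Mrpl44 (−0.11) lowest. Of 16 measured genes of growth signalling to ribosome synthesis, 1 was called higher and the median was −0.060. It was Myc, at 155 and 277 UMIs, or 3.75 and 8.01 CPM (1.10). The rise of Myc was not confined to beta cells. In alpha cells Myc was at 6.05 and 10.9 CPM (0.85), and in gamma cells at 6.07 and 5.96 (−0.03). Its ratio was 0.39 in B cells and 1.27 in immune cells, whose makeup differed between libraries. In beta cells Eif4ebp2 was at 0.11, Larp4 at −0.20 and Tsc2 at −0.17. Of 14 proteasome subunits, the counterpart in protein breakdown, 4 were called higher, none lower and 14 above 1, with a median of 0.26, from Psma1 at 0.07 and Psma3 at 0.10 to Psma4 at 0.36 and Psmb5 at 0.39. In alpha cells 13 of the 14 were above 1, 1 was called higher and the median was 0.16. Of all genes tested in alpha cells, 44.8% were above 1 and 13.3% were called higher.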

How the data were processed

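The authors deposited raw UMI counts for each gene in each cell, without scaling. The submitters' processing notes name Cell Ranger 2.1.0, STAR 2.5.1b and the build mm10, and no source used here names the annotation release. Cells needed at least 500 genes, at least 1000 UMIs and at most 10% mitochondrial UMIs. Counts were summed per class and library and divided by the UMIs outside Ins1 and Ins2. Doublets were handled by leaving out cells that met more than 1 hormone limit, with no doublet caller. A gene was tested for a class with at least 20 UMIs in it and 100 over both libraries. Ratios carry exact conditional binomial intervals, shares exact Clopper-Pearson and levels exact Poisson intervals at 95%, all covering counting error only. The ratio code was tested on simulated data. Named genes were the 8 most abundant members in WT beta cells, those with the 10 highest and 10 lowest ratios in beta cells, 4 and 4 in alpha cells, 3 and 3 in delta, gamma and immune cells, 6 and 6 in each comparison of classes among members with the same sign in both libraries, the paralogues, Fau and Gnb2l1, and the 2 highest and 2 lowest of each related list. Some genes that this rule picks are not reported here. Some members are named outside this rule, such as Rpl11, and were chosen after their values were seen. The comparison of immune with beta cells was made separately for macrophages and B cells, since their proportions differed between libraries. The members and lists were chosen with earlier results of these data known. Gene positions and 3' UTRs came from GENCODE (GRCm38), and promoters and the microRNA from RefSeq. Python 3.11.15, numpy 2.4.6, scipy 1.17.1, pandas 2.3.3, matplotlib 3.10.9, R 4.3.3 and edgeR 4.0.16 (TMM factors only) were used.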

Additional observations from a re-analysis of the deposited data

Results flagged for a closer look

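The summed ribosomal protein share had opposite directions in beta and alpha cells. Its log2 ratio of βTG over WT was 0.059 in beta cells and −0.15 in alpha cells, and the difference between the classes was not tested, since each genotype has 1 library. With all UMIs as the base both were negative, at −0.24 and −0.14.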

How the results depend on the processing

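With 1 library per genotype these values describe 2 libraries, and depth limits delta cells, macrophages, B cells and the rarest members most. No paired analysis was possible because each genotype has 1 library. The directions of the summed ratios in alpha, delta, gamma and immune cells and macrophages held under every alternative run. Those in beta and B cells reversed once each, in beta cells with all UMIs as the denominator and in B cells for the mean of per-cell shares. The cause of each change was not tested. All values are log2 ratios of βTG over WT unless a count or a comparison of classes is named.

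With all UMIs as the denominator the ratio was −0.24 in beta cells, −0.14 in alpha cells, −0.056 in delta cells, −0.24 in gamma cells, 0.45 in immune cells and 0.18 in macrophages, and alpha over beta was 1.56 in WT and 1.66 in βTG, with 9 members called lower in beta cells. Signs changed for Rpl10 (−0.18), Rpl15 (−0.095), Rpl27 (−0.10), Rpl37 (−0.22), Rpl37a (−0.24), Rpl5 (−0.10), Rpl6 (−0.11), Rpl6l (−0.094), Rpl7a (−0.0029), Rps14 (−0.19), Rps29 (−0.24), Rps3 (−0.098), Rps7 (−0.11) and Rps9 (−0.098) in beta and Rps19bp1 (0.036) and Rps27l (0.014) in gamma cells.

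Outside hormones and mitochondrial genes the ratio was 0.052 in beta cells, −0.12 in alpha cells, −0.031 in delta cells and −0.050 in gamma cells, and alpha over beta was 0.77 in WT and 0.60 in βTG. The direction changed for Rpl22l1 (0.18), Rps19bp1 (0.23) and Rps27l (0.20) in gamma cells. Under TMM scaling the ratio was 0.065 in beta cells, −0.11 in alpha cells, −0.025 in delta cells, −0.019 in gamma cells, 0.41 in immune cells, 0.075 in macrophages and 0.20 in B cells, and alpha over beta was 1.07 in WT and 0.87 in βTG. Signs changed for Rps27l (0.0046) in alpha and Rpl22l1 (0.21), Rps19bp1 (0.26) and Rps27l (0.24) in gamma cells. Under median of ratios scaling the ratio was 0.083 in beta cells, −0.12 in alpha cells, −0.049 in delta cells, −0.020 in gamma cells, 0.34 in immune cells, 0.12 in macrophages and 0.018 in B cells, and alpha over beta was 1.20 in WT and 0.99 in βTG, with 1 member called higher in beta cells. The direction changed for Rpl13a (0.017) and Rps2 (0.0021) in beta, Rpl22l1 (0.21), Rps19bp1 (0.26) and Rps27l (0.23) in gamma and Rps19bp1 (−0.028) in immune cells.

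For the mean of per-cell shares the ratio was 0.064 in beta cells, −0.082 in delta cells, −0.24 in gamma cells, 0.40 in immune cells, 0.14 in macrophages and −0.0021 in B cells, and alpha over beta was 0.59 in WT and 0.37 in βTG, with 1 member called higher in beta cells. Signs changed for Rps19bp1 (0.025) and Rps27l (0.051) in gamma and Rpl7l1 (0.14) and Rps19bp1 (−0.095) in immune cells. In cells with at most 5% mitochondrial UMIs the ratio was −0.16 in alpha cells, −0.086 in delta cells, 0.42 in immune cells and 0.15 in macrophages, and alpha over beta was 0.38 in βTG.

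After doubling the class limits the ratio was 0.075 in beta cells, −0.15 in alpha cells, −0.049 in delta cells, −0.30 in gamma cells, 0.42 in immune cells, 0.056 in macrophages and 0.060 in B cells, and alpha over beta was 0.63 in WT and 0.41 in βTG. The direction changed for Rpl13a (0.011), Rps2 (0.030) and Rps27rt (0.022) in beta, Rps19bp1 (0.073) in gamma and Rpl7l1 (0.049) in immune cells. Keeping cells that met 2 rules, the ratio was −0.14 in alpha cells and −0.25 in gamma cells, and alpha over beta was 0.56 in WT and 0.37 in βTG. Signs changed for Rps15a (−0.024) in delta and Rps19bp1 (0.12) in gamma cells. Taking each class by its own hormone alone, an alternative chosen after seeing the data, the ratio was −0.12 in alpha cells and −0.13 in gamma cells, and alpha over beta was 0.53 in WT and 0.35 in βTG. The direction changed for Rps27l (0.0022) in alpha, Rpl36a (−0.0015), Rps15a (−0.049) and Rps19bp1 (0.0057) in delta and Rps19bp1 (0.20) and Rps27l (0.030) in gamma cells.

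Without the deepest 4% of cells the ratio was −0.16 in alpha cells, −0.29 in gamma cells and 0.060 in macrophages, and alpha over beta was 0.38 in βTG, with 1 member called higher in beta cells. Signs changed for Rps19bp1 (0.097) in gamma cells. Leaving out only the deepest βTG macrophage, also chosen after seeing the data, the ratio was 0.060 in macrophages. Without paralogue genes alpha over beta was 0.60 in WT and 0.39 in βTG. With no minimum on members, with no mitochondrial limit, or without Rps19bp1 (the last added later), none of these summed ratios or counts moved beyond its interval.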
